A study of Homo sapiens with 6 samples.

Results

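Genes of the unfolded protein response and of the amino acid stress response were examined in the colorectal cancer line SW480, of human origin, and in M5, a population derived from it. The members are 32 genes chosen by name: chaperones of the endoplasmic reticulum (ER), targets of the transcription factors XBP1 and ATF6, and genes of the ATF4 pathway. Every probe set whose only gene symbol in the platform annotation was one of these names was taken. Of the 54675 probe sets on the array, 62 qualified, and they cover 31 of the 32 genes. SYVN1 has no probe set with that symbol alone and is not analysed here.

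SW480 is the parental line. M5 was isolated from it by selection in an animal and, per the labels, spreads more readily to the liver. Whether M5 is 1 clone or a mixture is not given in the sources used here. Both were cultured in the same serum-supplemented medium, and the labels name no drug, starvation or other stress for either. Total RNA of each population was hybridised to 3 arrays, titled as biological replicates.

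The ER folds secreted and membrane proteins. When unfolded proteins accumulate there, sensors in its membrane raise chaperones, widen the route by which misfolded proteins are exported and degraded, and slow translation. One of these sensors, PERK, phosphorylates the initiation factor eIF2 alpha, as do kinases that sense viral RNA or a lack of amino acids or haem. Translation of ATF4 then rises, and ATF4 induces genes for amino acid synthesis, amino acid transport and, under lasting stress, cell death. Chaperone genes are thus read as one arm of the response, and the ATF4 and CHOP genes as an arm shared with amino acid stress. Secretory epithelium such as that of the gut depends on the pathway for its normal output of proteins.

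Known promoter elements of these arms were searched in the RefSeq promoter windows (GRCh38.p14), on both strands, over the 250 bases before each transcription start. The ER stress element (ERSE) and the second ER stress element (ERSE-II) carry free positions inside a fixed frame, and their matched letters are the capitals in the stretches printed here. The C/EBP-ATF response element (CARE) is TGATGNAA and the unfolded protein response element is TGACGTGG. Windows were found for 31 member genes, 43 in all. ERSE was present in 5 of these 43 windows, against 0.074% of all 35116 windows, and ERSE-II in 3, against 0.0513%. CARE was present in 4 of 43, against 3.14% of all windows. A match is a description of letters and does not show that a factor binds there.

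The following sequences are shown because they mark the members that share a stress element. Each runs 5′ to 3′ on the gene's strand with the matching letters in capitals. HSPA5 stands first, with the 150 bases that end at the last base before its start (chr9:125241344-125241493, minus strand).
HSPA5: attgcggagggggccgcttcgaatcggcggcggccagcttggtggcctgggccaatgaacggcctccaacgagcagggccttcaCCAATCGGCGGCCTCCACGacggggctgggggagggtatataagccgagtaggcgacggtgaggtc
HSP90B1: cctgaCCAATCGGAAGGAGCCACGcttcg
PDIA6: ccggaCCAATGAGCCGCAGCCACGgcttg
XBP1: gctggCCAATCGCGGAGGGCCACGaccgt
CRELD2: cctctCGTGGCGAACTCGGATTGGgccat
HYOU1: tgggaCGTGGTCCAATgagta
SDF2L1: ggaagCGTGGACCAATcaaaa
HERPUD1: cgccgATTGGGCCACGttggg

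In this set CRELD2 holds ERSE on the opposite strand, and HYOU1 and SDF2L1 hold ERSE-II on the opposite strand. These stretches lie at chr12:103930211-103930239 (plus strand) for HSP90B1, chr2:10812848-10812876 (minus) for PDIA6, chr22:28800598-28800626 (minus) for XBP1, chr22:49918549-49918577 (plus) for CRELD2, chr11:119057269-119057289 (minus) for HYOU1, chr22:21642109-21642129 (plus) for SDF2L1 and chr16:56932020-56932040 (plus) for HERPUD1. HSP90B1 and HYOU1 each hold a second match that is not printed. All but XBP1 belong to the chaperone and degradation groups, where 7 of 14 listed genes hold ERSE or ERSE-II. CARE matches, by contrast, fall on 3 genes of the ATF4 arm and on HERPUD1.
ASNS: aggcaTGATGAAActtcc
ATF3: caggaTGATGGAAggctg
CHAC1: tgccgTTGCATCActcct

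The CARE stretches lie at chr7:97872464-97872481 (minus) for ASNS, chr1:212565211-212565228 (plus) for ATF3 and chr15:40953257-40953274 (plus) for CHAC1, where the match is on the opposite strand. The CARE match of HERPUD1 is not printed. The unfolded protein response element was found in 1 member, HYOU1, against 0.612% of all windows. It overlaps the HYOU1 copy of ERSE-II that is not printed.

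Signals are the deposited probe set intensities after quantile normalisation, in arbitrary units. A gene is represented by its brightest probe set, and signals of different genes are not compared with each other because probes differ in brightness. Fold changes are differences in log2(signal + 1.7), M5 minus SW480, and understate differences of low signals. They come with a standard error (SE) from limma fitted over 14243 genes, and p-values are adjusted over those genes by Benjamini-Hochberg with a threshold of 0.05. Mean signals are given with n = 3 for SW480 and n = 2 for M5, because M5 replicates 2 and 3 were counted as 1 sample. These arrays correlated at r = 0.995 over 2135 bright probe sets, where all other pairs had r between 0.872 and 0.954. Unless stated otherwise, fold changes, SEs and p-values treat the 3 M5 arrays as separate samples. The SEs and p-values thus overstate the precision if M5 replicates 2 and 3 are 1 sample.

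The 2 replicate 1 arrays were the dimmest, with trimmed mean signals of 21.12 and 27.24 against 53.78 to 87.09 for the others. A control probe set for 18S ribosomal RNA read 2823.9 to 4163.4 on 3 arrays (M5 replicate 1 with SW480 replicates 1 and 2) and 96.3 to 234.1 on the others. Arrays thus differ within each population, and values are given both over all 6 arrays and apart for the dimmer and the brighter arrays. Epithelial markers differed widely in signal. EPCAM signals lay between 2169 and 2878 over the 6 arrays. Those of VIL1 lay between 6.17 and 17.0 and those of CEACAM5 between 3.65 and 14.4. Of 14 colorectal epithelial markers, 12 passed the filter on low signals, and the intestinal transcription factor genes CDX1 and CDX2 did not. VIL1 and CEACAM5 were among the 12, so passing the filter does not show that a marker was expressed. Of markers of other cells, 7 of 8 fibroblast, 4 of 6 hepatocyte, 3 of 5 plasma cell, 2 of 6 leukocyte and 1 of 5 endothelial genes passed it. None of the marker genes passed the test between the populations. Of the epithelial markers, CEACAM5 was higher in every M5 array (0.98, SE 0.54) and KRT20 lower (-0.49, SE 0.34). Among the markers of other cells, 3 did not overlap. Over all genes tested, 7.66% did not overlap in the higher and 8.42% in the lower direction. The hepatocyte marker TTR had signals of 5.17, 1.67 and 1.43 in SW480 and of 196, 73.05 and 5.68 in M5, a difference of 3.52 on the log2 scale (SE 0.97, limma adjusted p = 0.248). The fibroblast marker COL3A1 was lower in every M5 array (-1.31, SE 0.33, limma adjusted p = 0.224), and the plasma cell marker MZB1, with signals of at most 15.6, was higher (0.82, SE 0.51, limma adjusted p = 0.574). The part of other cells in the results was not tested. In bulk RNA, fewer cells of a kind and less RNA per cell cannot be told apart.

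ATF3, a stress-induced transcription factor, was the only member that passed the threshold over 6 arrays with the M5 arrays as 3 samples, and it was higher in M5. With M5 replicates 2 and 3 averaged, the count used for the means here, its limma adjusted p was 0.337 and no member passed. The other members then had limma adjusted p from 0.841 (HSPA5) to 0.999 (ATF4). The chaperone group had log2 fold changes below 0 in 9 of 10 genes, with a median of -0.42. The ATF4 and CHOP group had values above 0 in 7 of 8 genes, with a median of 0.87. Over all genes tested the median was -0.01, and 50.8% lay below 0. Averaging M5 replicates 2 and 3 gave medians of -0.32 for the chaperone group and 0.75 for the ATF4 and CHOP group. These groups are described by their counts, and none of their other members passed singly. In all, 1 of 31 members was past the threshold and higher, against 0.0983% of all genes, and 0 were lower, against 0.0913%. The members were chosen with earlier results of these data known, so these shares do not measure an enrichment. At an unadjusted p under 0.05 in limma, 3 members were higher and 5 lower, against 5.42% and 6.14% of all genes. With probe sets as the unit, 0 of the 57 member probe sets that passed the low-signal filter were past the threshold in either direction, against 0.0397% higher and 0.0336% lower over all 32768 probe sets. At an unadjusted p under 0.05, 5 of the 57 were higher and 5 lower, against 4.8% and 5.46%. ATF3's brightest probe set then had a limma adjusted p of 0.0678, which does not pass. The ATF3 call over genes was kept in 7 of 20 alternative settings.

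**Figure D1:**
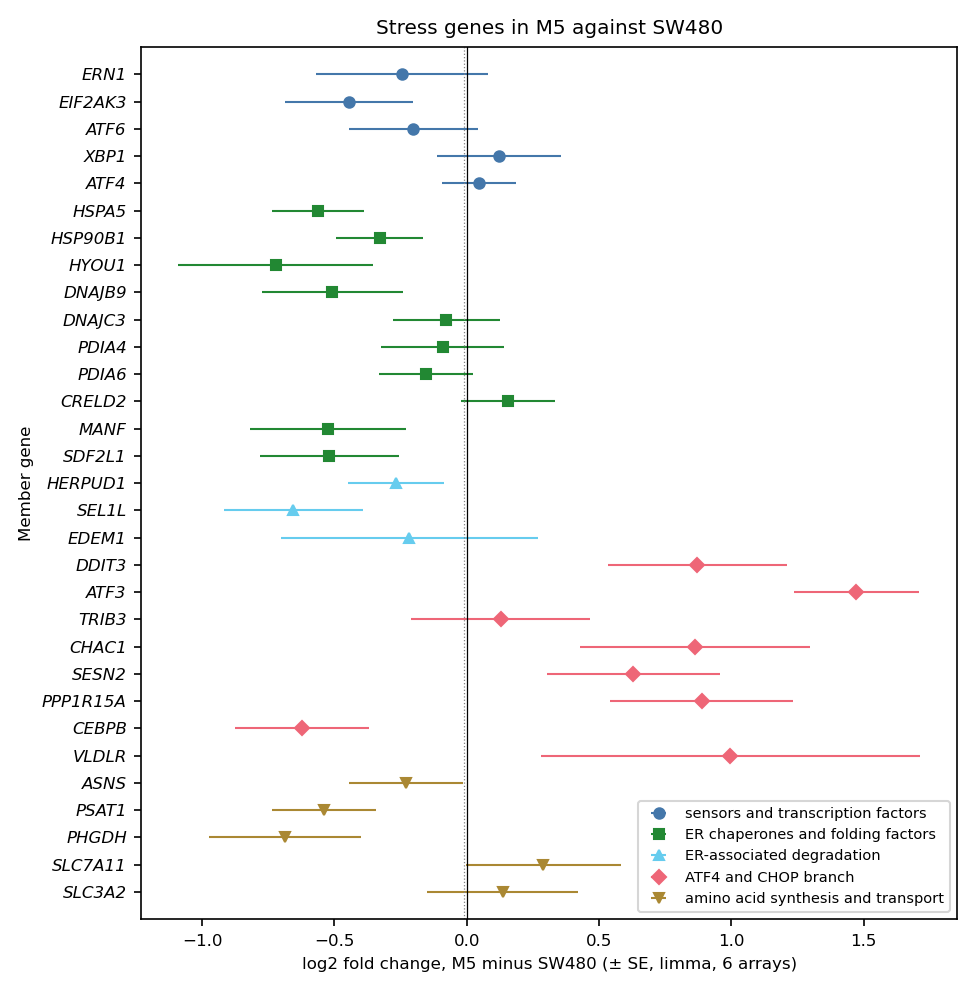
Log2 fold change of each of the 31 measured member genes, M5 minus SW480, with its SE from limma over 6 arrays; colours and shapes mark the role, and the dotted line is the median of all genes tested. ATF3 stands farthest to the right at 1.47, and 9 of the 10 chaperone genes lie left of 0.

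The sensors came first in the comparison. ERN1, which encodes the sensor IRE1 that splices XBP1 messenger RNA, had signals of 59.1, 42.0 and 44.4 on SW480 replicates 1, 2 and 3 and of 52.9, 31.6 and 38.8 on M5 replicates 1, 2 and 3. EIF2AK3, which encodes PERK, had 132, 170 and 178 in SW480 and 98.0, 125 and 128 in M5. ATF6, the gene of the sensor that is cleaved in the Golgi to become a transcription factor, had 120, 101.5 and 133 in SW480 and 91.1, 110.3 and 106 in M5. The populations overlapped for ERN1 and ATF6, and every M5 array lay below every SW480 array for EIF2AK3. Signals of this kind that do not overlap, in the lower direction, were found for 6 of 31 members, against 8.42% of all genes, and in the higher direction for 3, against 7.66%. The log2 fold change of EIF2AK3 was -0.44 (SE 0.24, limma adjusted p = 0.511), that of ERN1 -0.24 (SE 0.32, limma adjusted p = 0.819) and that of ATF6 -0.20 (SE 0.24, limma adjusted p = 0.799).

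XBP1, the transcription factor made active by splicing, had signals of 209, 295 and 244 in SW480 and of 207, 318 and 294 in M5. ATF4, whose product is raised mainly through translation, had 2079, 1927 and 1956 in SW480 and 1811, 2169 and 2197 in M5. The highest and the lowest ATF4 signals both came from M5, and the XBP1 signals of the replicate 1 arrays were nearly equal. Their log2 fold changes were 0.12 (SE 0.23, limma adjusted p = 0.884) for XBP1 and 0.05 (SE 0.14, limma adjusted p = 0.928) for ATF4. These signals measure transcript and give neither XBP1 splicing nor ATF4 protein.

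Among chaperones, HSPA5, which encodes the ER chaperone BiP that also holds the sensors inactive, had signals of 3328, 4609.7 and 3162 in SW480 and of 2903, 2358 and 2204 in M5. All M5 arrays lay below all SW480 arrays, with means of 3700.1 ± 792 (SD, n = 3) and 2592 ± 439.7 (SD, n = 2). The log2 fold change was -0.56 (SE 0.17, limma adjusted p = 0.291), a difference that did not pass. HSP90B1, the gene of the ER chaperone GRP94, had 856, 1049.5 and 1036 in SW480 and 841, 788 and 708.5 in M5. These values did not overlap either, though the replicate 1 arrays of the populations were close, and the log2 fold change was -0.33 (SE 0.16, limma adjusted p = 0.472). Both HSP90B1 probe sets carry the suffix of probes that can bind related transcripts, so the value is uncertain.

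CRELD2, an ER-resident folding factor, went the other way from HSPA5 without passing. Its signals were 400.3, 385 and 345 in SW480 and 421, 402 and 434 in M5, and its log2 fold change was 0.16 (SE 0.18, limma adjusted p = 0.785). Its M5 signals all lay above those of SW480, but SW480 replicate 1 and M5 replicate 2 nearly touched. HYOU1, a large ER chaperone of the HSP70 family, had the lowest log2 fold change of the members, -0.72, with an SE of 0.37 (limma adjusted p = 0.485). Its signals of 441, 524 and 225.5 in SW480 and 370.0, 213 and 146 in M5 overlapped.

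MANF, a secreted ER stress protein, had signals of 786, 528 and 522 in SW480 and of 686, 323 and 327 in M5. M5 replicate 1 lay among the SW480 arrays and the other M5 arrays below them. The remaining chaperone genes were SDF2L1, a partner of ER co-chaperones (-0.52, SE 0.26), DNAJB9, a co-chaperone of BiP (-0.51, SE 0.27), PDIA6 (-0.15, SE 0.18) and PDIA4 (-0.09, SE 0.23), which encode disulfide isomerases, and DNAJC3, a co-chaperone that also inhibits PERK (-0.08, SE 0.20). Their limma adjusted p lay between 0.483 and 0.915, and the populations overlapped for each of them.

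For degradation, SEL1L, the scaffold of the ubiquitin ligase that removes misfolded ER proteins, had signals of 165, 225 and 172 in SW480 and of 149, 124 and 87.5 in M5. HERPUD1, which recruits that ligase's parts, had 383, 392 and 373 in SW480 and 345, 321 and 289 in M5. For both genes every M5 array lay below every SW480 array. The log2 fold changes were -0.66 (SE 0.26, limma adjusted p = 0.393) for SEL1L and -0.27 (SE 0.18, limma adjusted p = 0.607) for HERPUD1. EDEM1, a lectin that hands over misfolded glycoproteins, had signals between 9.05 and 30.7 with overlap, and a log2 fold change of -0.22 (SE 0.49). All 3 measured genes of this group had values below 0, with a median of -0.27.

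Members with an ERSE or ERSE-II match in the windows described above had log2 fold changes below 0 in 6 of 8 genes, with a median of -0.30. The other 23 measured members had values below 0 in 13 genes, with a median of -0.09. They include the 8 genes of the ATF4 and CHOP group, 7 of them above 0. Measured chaperone and degradation genes without a match were below 0 too: SEL1L (-0.66), MANF (-0.525), DNAJB9 (-0.51), EDEM1 (-0.22), PDIA4 (-0.09) and DNAJC3 (-0.08). The 2 genes above 0 with such a match were CRELD2 and XBP1. Of the 4 genes with a CARE match, ATF3 and CHAC1 lay above 0 and HERPUD1 and ASNS below it. This sorting by sequence is a description, since members were picked by name and the difference was not tested.

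In the ATF4 and CHOP group, ATF3 had signals of 129, 104 and 116 in SW480 and of 249, 362 and 380.2 in M5. Even the lowest M5 array was well above the highest SW480 array. Means were 116 ± 12.8 (SD, n = 3) and 309.8 ± 86.3 (SD, n = 2), and the log2 fold change was 1.47 (SE 0.24, limma adjusted p = 0.0465). On the dimmer arrays the log2 difference was 0.94 and on the brighter ones 1.74, and it was 1.09 within the arrays where the 18S control was bright and 1.66 within those where it was dim. Because the populations do not overlap, the direction in these subsets follows from the whole. With M5 replicates 2 and 3 averaged, 0 members passed in either direction, against 0.00702% of all genes higher and 0.0211% lower. The ATF3 call was lost on leaving out SW480 replicate 2 (limma adjusted p = 0.24) or 3 (0.203), or M5 replicate 2 (0.342) or 3 (0.327), and kept without either replicate 1 array.

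DDIT3, the gene of the pro-apoptotic factor CHOP, had signals of 121, 49.9 and 66.02 in SW480 and of 107, 163 and 144 in M5. PPP1R15A, which encodes GADD34, the subunit that brings a phosphatase to eIF2 alpha and so restores translation, had 66.2, 71.9 and 41.2 in SW480 and 68.3, 141 and 134 in M5. CHAC1, an enzyme that degrades glutathione, had 38.1, 12.4 and 15.1 in SW480 and 32.9, 39.3 and 38.3 in M5. In each of these genes M5 replicates 2 and 3 lay above all SW480 arrays, while M5 replicate 1 lay within the SW480 range. For CHAC1 that margin was thin, since SW480 replicate 1 came within 1 unit of M5 replicate 3. Over 6 arrays the log2 fold changes were 0.87 (SE 0.34) for DDIT3, 0.89 (SE 0.35) for PPP1R15A and 0.86 (SE 0.43) for CHAC1, with limma adjusted p of 0.382, 0.384 and 0.479. Averaging M5 replicates 2 and 3 gave DDIT3 a value of 0.79 (SE 0.41, limma adjusted p = 0.853).

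SESN2, a sestrin that restrains mTORC1 when leucine is scarce, had signals of 33.7, 38.9 and 37.7 in SW480 and of 39.4, 66.9 and 72.6 in M5. The lowest M5 array and the highest SW480 array nearly touched, and its log2 fold change was 0.63 (SE 0.33, limma adjusted p = 0.492). TRIB3, a pseudokinase induced by ATF4 and CHOP, had 269, 148 and 134 in SW480 and 121, 235 and 246 in M5, so that SW480 replicate 1 was the highest array and M5 replicate 1 the lowest. Its log2 fold change was 0.13 (SE 0.34, limma adjusted p = 0.916).

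CEBPB, a leucine zipper factor that pairs with ATF4 and CHOP, was the member of this group with a value below 0. Its signals were 839.7, 451 and 680.4 in SW480 and 533, 346 and 381 in M5, and its log2 fold change was -0.62 (SE 0.25, limma adjusted p = 0.393). VLDLR, a lipoprotein receptor gene that ATF4 can induce, gave 0.996 on the log2 scale (SE 0.72, limma adjusted p = 0.633) from signals of 0.783 to 16.7, near the bottom of the scale. Both genes count in the group's median, which carries no test.

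**Figure D2:**
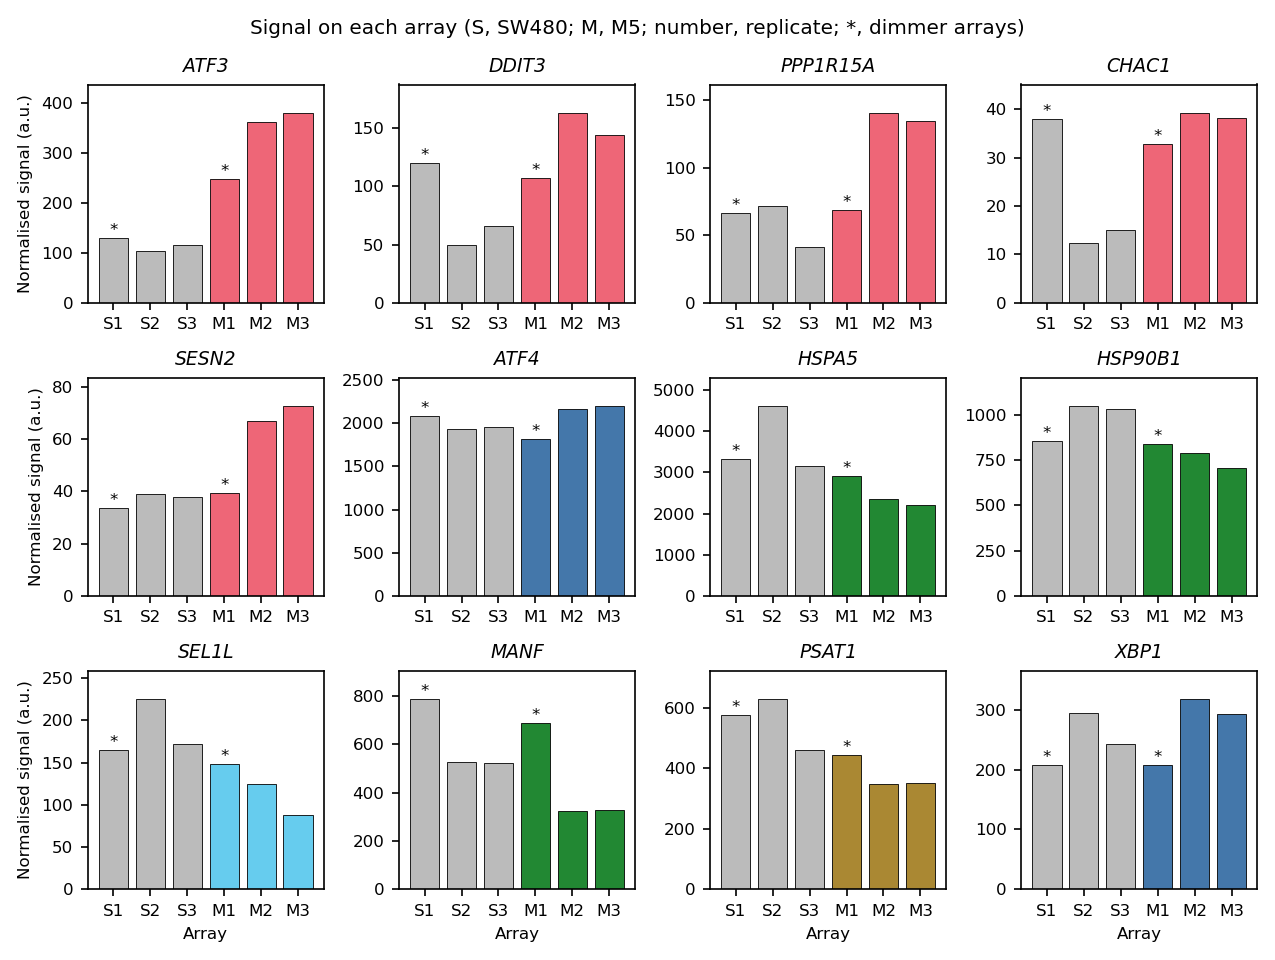
Quantile-normalised signal (arbitrary units, axes from 0) of 12 member genes on the 6 arrays, with SW480 in grey and M5 in the colour of the role; asterisks mark the dimmer replicate 1 arrays. ATF3 is above the SW480 arrays on all 3 M5 arrays, whereas for DDIT3, PPP1R15A and CHAC1 M5 replicate 1 is within the SW480 range. For DDIT3 and CHAC1 only SW480 replicate 1 lies above M5 replicate 1.

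Amino acid genes did not follow the ATF4 and CHOP group as a whole. PSAT1, an enzyme of serine synthesis, had signals of 574, 627 and 461 in SW480 and of 444, 347 and 351 in M5, without overlap, and its log2 fold change was -0.54 (SE 0.20, limma adjusted p = 0.355). PHGDH, the first enzyme of that pathway, had 153, 211 and 109.9 in SW480 and 92.7, 79.8 and 112.6 in M5, and its log2 fold change was -0.69 (SE 0.29, limma adjusted p = 0.401). The PHGDH populations overlapped by a single M5 array. ASNS, asparagine synthetase and a standard ATF4 target, had 333, 556 and 444 in SW480 and 349, 378 and 386 in M5, with overlap, and its log2 fold change was -0.23 (SE 0.22, limma adjusted p = 0.73).

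The cystine carrier is a dimer. SLC7A11, its light chain, had signals of 147, 82.9 and 94.3 in SW480 and of 97.4, 144 and 151 in M5, and its log2 fold change was 0.29 (SE 0.29, limma adjusted p = 0.752). SLC3A2, the heavy chain shared with other amino acid carriers, had 199, 207 and 111 in SW480 and 224, 149 and 181 in M5, and its log2 fold change was 0.14 (SE 0.29, limma adjusted p = 0.893). The populations overlapped for both chains by these brightest probe sets. A second SLC7A11 probe set was higher on every M5 array (0.59, SE 0.27, limma adjusted p = 0.486 over probe sets).

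The dimmer and the brighter arrays share no array, so the difference between the populations can be read in each. Of the 31 members, 21 (67.7%) had the same sign in both, against 50.6% of all 14243 genes. Genes whose populations do not overlap have the same sign in both by construction. Such genes were 3 higher and 6 lower of the 31 members, against 7.66% and 8.42% of all genes. The members were also chosen with earlier results known, so this share is a description and no test. In the ATF4 and CHOP group the median log2 difference was -0.06 on the dimmer arrays, with 4 of 8 genes above 0, and 1.23 on the brighter arrays, with 7 of 8 above 0. The chaperone group had medians of -0.11, with 6 of 10 genes below 0, and of -0.42, with 9 of 10 below 0. TRIB3 differed by -1.14 on the dimmer arrays and by 0.76 on the brighter ones, and SLC7A11 by -0.59 and 0.73. The second SLC7A11 probe set differed by 0.24 and 0.77, so this change of sign holds for the brightest probe set only. DDIT3 and CHAC1 differed by -0.17 and -0.20 on the dimmer arrays and by 1.39 each on the brighter ones. CEBPB and PHGDH, on the other hand, were about as low on the dimmer arrays (-0.65 and -0.72) as on the brighter ones (-0.61 and -0.67). The part of array brightness in these differences was not tested. On the 18S control, PPP1R15A differed by -0.01 within the arrays of high and by 1.70 within those of low signal, and MANF by 0.09 and -0.68. CEBPB differed there by -0.21 and -0.90 and PHGDH by -0.94 and -0.21, so these genes were not steady under that split.

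**Figure D3:**
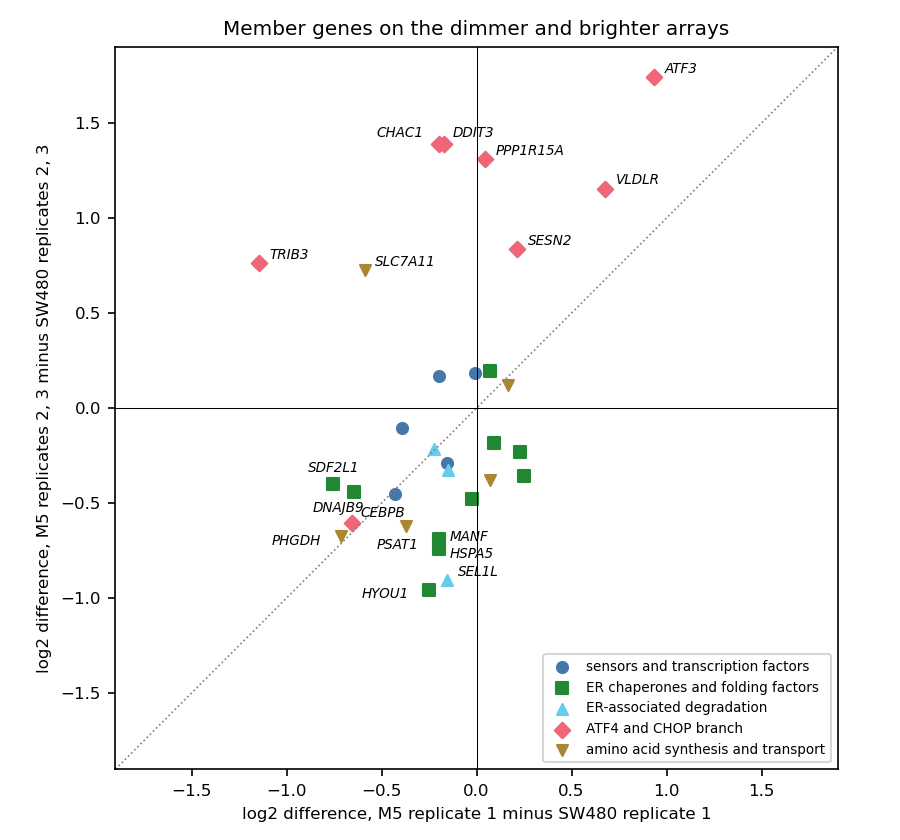
Log2 difference of each member gene between M5 and SW480, by its brightest probe set. The horizontal axis has the dimmer replicate 1 arrays and the vertical axis the brighter replicates 2 and 3. Equal values lie on the dotted line. ATF3 is above 0 on both axes, whereas CHAC1, DDIT3, TRIB3 and SLC7A11 are above 0 on the brighter arrays and below 0 on the dimmer ones.

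On the 4 brighter arrays alone, 6 members were past the threshold and higher in M5 and 4 were lower. Over all genes, 5.03% were called higher and 6.38% lower in that fit, so calls there were common. The higher members were ATF3, DDIT3, PPP1R15A, TRIB3 and CHAC1, 5 of the 8 genes of the ATF4 and CHOP group, together with SLC7A11. Their log2 fold changes were 1.74 (SE 0.17), 1.39 (SE 0.23), 1.31 (SE 0.28), 0.76 (SE 0.17), 1.39 (SE 0.33) and 0.73 (SE 0.20), in that order, with limma adjusted p from 0.000819 for ATF3 to 0.0461 for SLC7A11. The lower members were the chaperone genes HSPA5 (-0.74, SE 0.17), MANF (-0.69, SE 0.14) and HSP90B1 (-0.48, SE 0.13) and the degradation gene SEL1L (-0.91, SE 0.23), with limma adjusted p from 0.018 for MANF to 0.0483 for HSP90B1. On the dimmer arrays the differences of these genes were smaller, at -0.20 for HSPA5, -0.20 for MANF, -0.03 for HSP90B1 and -0.15 for SEL1L. These genes were picked by passing on the brighter arrays, so the contrast with the dimmer arrays is no test. No sensor gene passed in this fit, where the limma adjusted p of all 5 lay between 0.143 and 0.8. With M5 replicates 2 and 3 averaged there as well, leaving 2 SW480 samples against 1 M5 sample that is assumed to vary like them, ATF3 alone passed (limma adjusted p = 0.0246), against 0.786% of all genes higher and 1.11% lower. By probe sets, 7 of the 57 member probe sets were higher on the 4 brighter arrays and 3 lower, against 3.74% and 4.29% of all, and with averaging 2 were higher and 0 lower, against 0.507% and 0.8%. After averaging, DDIT3 had a limma adjusted p of 0.0844 over genes and the other 8 members lay between 0.148 and 0.455.

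Probe sets of the same gene were compared as a check within the arrays. Of 15 members with more than 1 probe set above the filter, 11 had all of them on the same side of 0. PPP1R15A had 0.89 and 0.75, and ATF3 had 1.47 and 1.53 with a further, dim probe set at 0.03 (SE 0.55). Second probe sets of HSPA5 (-0.34), HSP90B1 (-0.02), PSAT1 (-0.14) and SESN2 (0.17) overlapped between the populations, where the brightest ones did not. That of PSAT1 differed by -0.62 on the dimmer and 0.10 on the brighter arrays, and that of SESN2 by -0.89 and 0.71. The SLC7A11 probe sets had 0.29, 0.59 and 1.14, so the brightest of them gave the smallest value. For ERN1 and ATF6 the dimmest probe sets, at 0.98 (SE 0.55) and 0.99 (SE 0.64), opposed the brighter ones. These had signals of at most 19.0 (ERN1) and 17.7 (ATF6). SEL1L and PDIA4 also had probe sets on both sides of 0, from -0.66 to 0.27 and from -0.09 to 0.06.

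**Figure D4:**
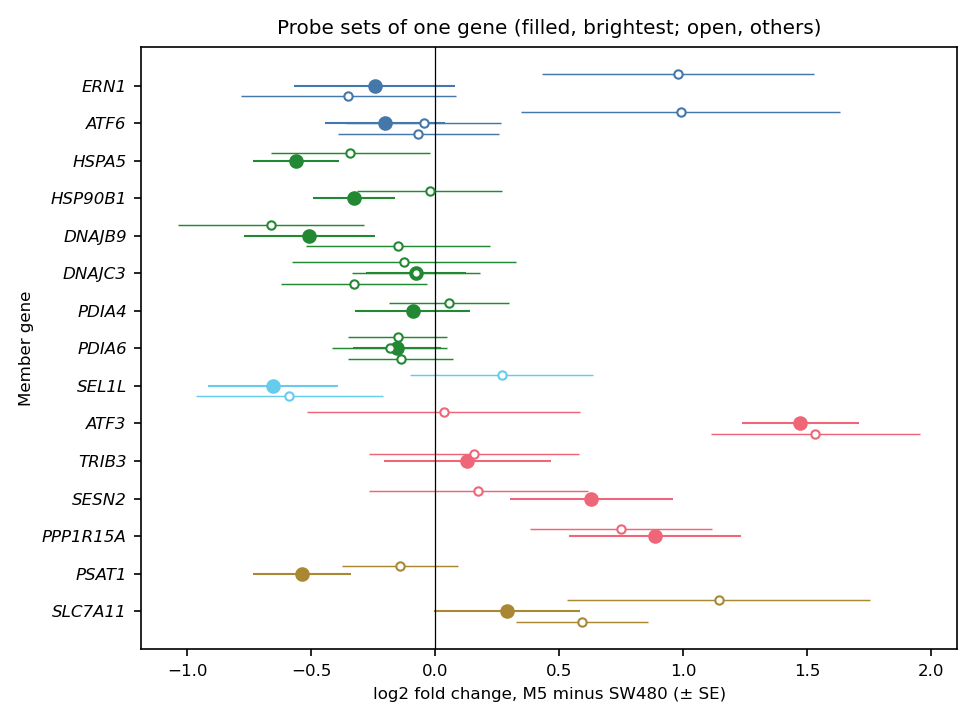
Log2 fold change with SE of each probe set above the low-signal filter for the 15 members with more than 1 of them, the brightest filled and the others open. All probe sets of PDIA6 and DNAJC3 lie left of 0, while those of ERN1, ATF6, SEL1L and PDIA4 lie on both sides.

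Neighbouring genes of the same pathways were drawn from lists that do not overlap with the members. None of the 94 measured genes of these lists passed over 6 arrays, against 0.0983% of all genes higher and 0.0913% lower. At such shares none is the usual count for 94 genes. Each list is given by its median beside -0.01 over all genes. Other ER folding and secretory genes had a median of -0.18 over 26 genes, with 20 below 0. SEC61A1, the channel through which proteins enter the ER, was lowest among those without overlap (-0.83, SE 0.22, limma adjusted p = 0.231), followed by PDIA3, a disulfide isomerase (-0.52, SE 0.18), SPCS2, a signal peptidase subunit (-0.47, SE 0.15), and DNAJC10, an ER reductase (-0.31, SE 0.19). SEC61B, a further subunit of the channel, lay above SW480 on all M5 arrays (0.23, SE 0.14, limma adjusted p = 0.553) and was added after its value was seen. Other degradation and cleavage genes had a median of -0.22 over 17 genes, with 13 below 0. There CREB3L2, an ER-anchored transcription factor (-0.83, SE 0.23), CREB3, its relative (-0.55, SE 0.26), MBTPS2, the protease that releases ATF6 (-0.38, SE 0.20), and DERL2, an export factor (-0.22, SE 0.19), lay without overlap.

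Other eIF2 alpha and ATF4 genes did not share the median of the ATF4 and CHOP members: theirs was 0.01 over 17 genes, with 9 above 0. CEBPG, a dimer partner of ATF4, lay above SW480 on all M5 arrays (0.83, SE 0.24, limma adjusted p = 0.26), and EIF2AK2, the eIF2 alpha kinase that senses viral RNA, lay below (-0.32, SE 0.20). Other amino acid and one-carbon genes had a median of -0.05 over 11 genes. None of them lay without overlap, against 7.66% of all genes higher and 8.42% lower. Cytosolic aminoacyl-tRNA synthetases, several of them known ATF4 targets, had a median of -0.22 over 11 genes with 10 below 0. EPRS1 (-0.53, SE 0.19) and CARS1 (-0.18, SE 0.16) lay without overlap.

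Heat shock proteins of the cytosol and mitochondria had a median of -0.34 over 12 genes, with 10 below 0, beside -0.42 for the ER chaperones. Without overlap lay DNAJA1, a cytosolic co-chaperone (-0.91, SE 0.23), and HSP90AB1, a cytosolic HSP90 (-0.46, SE 0.14), below SW480, and the small heat shock protein HSPB1 above it (0.86, SE 0.20, limma adjusted p = 0.184). HSPB1 differed by 0.95 on the dimmer and 0.82 on the brighter arrays. On the dimmer arrays the heat shock list had a median of 0.01 and on the brighter arrays of -0.43.

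**Figure D5:**
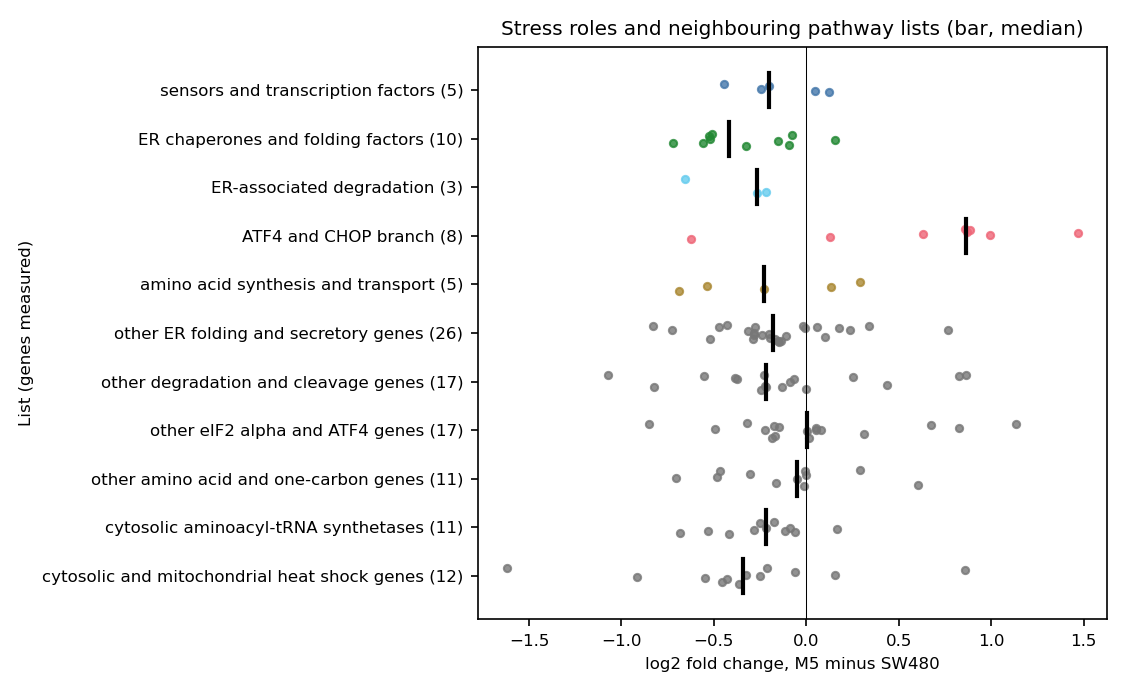
Log2 fold change of every measured gene in the 5 roles of the members (coloured) and in 6 neighbouring lists (grey), with the median as a bar and the number of genes in parentheses. The ATF4 and CHOP members have a median of 0.87, and the other lists have medians between -0.42 and 0.01.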

How the data were processed

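Total RNA of 3 SW480 and 3 M5 samples was hybridised to Affymetrix arrays. The authors deposited 1 intensity per probe set on a linear scale, with GCOS 1.4 as the software per the submitters' processing notes. Scaling, genome build and detection calls: not given in the sources used here.

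Quantile normalisation was run over all 54675 probe sets. The pseudocount of 1.7 is the 20th percentile of the deposited values. The 62 control probe sets and then the 40% with the lowest mean log2 over 6 arrays were left out. Of 54613 probe sets, 41091 have 1 symbol, 1801 several and 11721 none; gene IDs matched 41037 of the first to RefSeq (GRCh38.p14), with 0 symbols changed. All measured members passed the filter by at least 1 probe set.

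Groups were compared with limma 3.58.1 (R 4.3.3; lmFit, eBayes with intensity trend), two-sided, fitted over the whole table. P-values measure the spread between these arrays only, and precision is limited by their number. The script was tested on simulated data. Members and lists were chosen with earlier results of these data known. By rule, array signals were given for members without overlap, with an absolute log2 fold change of at least 1, or among 7 core genes; further members were added after their values were seen. Of each neighbouring list, up to 4 genes without overlap were named. Alternatives changed scaling, pseudocount, filter, variance model, probe set, blocks and arrays. Equal replicate numbers were not taken to pair the samples. Figures used matplotlib 3.10.9.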

Additional observations from a re-analysis of the deposited data

How the results depend on the processing

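Over 20 alternatives, 1 of them (the brighter arrays with M5 replicates 2 and 3 averaged) chosen after the data were seen, ATF3 kept a log2 fold change above 0, from 1.01 to 1.74, and stayed past the threshold in 7. Its limma adjusted p ranged from 0.000819 to 0.9999. Genes called higher and lower in all were 14 and 13.

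Member genes higher fell to 0 with no scaling, median centring, the smaller pseudocount (0.425), the 60% filter, no trend, the mean of probe sets, the replicate block, the 18S block and M5 replicates 2 and 3 averaged. All genes higher and lower were then 6 and 3 (no scaling), 5 and 4 (median centring), 9 and 7 (smaller pseudocount), 8 and 5 (60% filter), 0 and 0 (no trend), 9 and 5 (mean of probe sets) and 1 and 3 (M5 averaged), with 8 lower under the 18S block. Without the 2 dimmest arrays, member genes higher and lower were 6 and 4, member probe sets 7 and 3, and all genes 717 and 909. With M5 averaged as well, 2 member probe sets were higher, and all genes were 112 and 158. Member probe sets higher numbered 1 with no filter and with the dim-array block, which gave 39 and 25 genes in all.

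The median of all members was -0.067 with no scaling, -0.11 with M5 averaged and -0.094 with the 18S block, against -0.20. No scaling moved the chaperone median to -0.18 and the degradation median to -0.13; it moved the median of all genes to 0.07. With the mean of probe sets the sensor median was 0.12, and ATF6 (0.17) and ERN1 (0.13) changed sign. For none of these was the cause tested.

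Leaving out 1 array gave 0 to 1 member genes and 0 to 2 member probe sets higher, and 0 to 106 genes higher and 2 to 153 lower in all. Medians ranged from -0.22 to -0.051 for all members, -0.31 to -0.079 for sensors and -0.46 to -0.25 for degradation. Medians also ranged from -0.35 to -0.31 for chaperones, 0.63 to 1.10 for the ATF4 and CHOP group and -0.42 to -0.051 for amino acid genes. ATF4 ranged from -0.003 to 0.14. The ATF3 call was lost without SW480 replicate 2 or 3 and without M5 replicate 2 or 3 (limma adjusted p from 0.203 to 0.342), and kept without SW480 replicate 1 (0.0194) or M5 replicate 1 (0.0106).

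With the replicate block ATF3 had a limma adjusted p of 0.0704. Deviations of equal replicate numbers correlated at 0.107, 0.016 and 0.071, and for SW480 replicate 3 the highest value was with M5 replicate 2 (0.076). The replicate 1 arrays, both dim, were closer to each other over bright probe sets (r = 0.949) than SW480 replicate 1 was to SW480 replicates 2 and 3 (0.902 and 0.901), and the labels do not say that a number marks a shared batch. Without detection calls, low signals such as those of VLDLR set no firm fold.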
